A study of Mus musculus with 50 samples.

Results

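Calcineurin is a protein phosphatase that calcium switches on, and 9 genes of its route were followed in the mouse heart. They were the regulator genes Rcan1 and Rcan2, the subunit genes Ppp3ca, Ppp3cb and Ppp3r1, and the transcription factor genes Nfatc1, Nfatc2, Nfatc3 and Nfatc4, taken by symbol from the 35717 genes of the deposited expression table. Poly(A) RNA of the left ventricle was sequenced from mice aged 40 weeks on the C57BL/6J background, in 50 libraries whose numbers each occur once and which are taken as separate animals. The groups were 13 LARP6-transgenic (Tg) hearts infused with angiotensin II (Ang II), of 7 females and 6 males, 12 Tg hearts infused with saline (6 and 6), 14 wild-type (WT) littermate hearts infused with Ang II (7 and 7) and 11 WT hearts infused with saline (5 and 6). Infusion ran by implanted pump for 21 days in all groups, with Ang II at 1000 ng per kg per minute. The series title calls the overexpression cardiomyocyte-specific. The promoter of the transgene and the number of founder lines are not given in the labels. LARP6 is an RNA-binding protein, and Ang II is a peptide hormone that raises blood pressure.

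In cardiac muscle, as elsewhere, a rise in calcium loads calmodulin, which activates the calcineurin holoenzyme of a catalytic A subunit and a regulatory B subunit. Calcineurin removes phosphates from cytoplasmic NFAT factors, which then enter the nucleus and act with partners such as GATA4, while kinases such as GSK3 and DYRK return them to the cytoplasm. The route is known in mice for driving pathological growth of the heart. RCAN1 and RCAN2 bind calcineurin and can inhibit it, and the Rcan1 transcript from an internal start site is itself a known NFAT target, which is why Rcan1 is widely used as a readout of the route.

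The 2 start sites of Rcan1 in RefSeq (assembly GRCm38.p6) lie 66091 bases apart on the minus strand of chromosome 16, and the 250 bases before each are shown because the internal one is the start that NFAT is known to drive. Capitals mark GGAAA, the core letters of an NFAT site, on either strand (TTTCC on the other), TGANTCA, the AP-1 motif, and TGACGTCA, the cyclic AMP response element. The upstream window is chr16:92466170-92466419 and the internal window is chr16:92400079-92400328.
Rcan1 upstream start: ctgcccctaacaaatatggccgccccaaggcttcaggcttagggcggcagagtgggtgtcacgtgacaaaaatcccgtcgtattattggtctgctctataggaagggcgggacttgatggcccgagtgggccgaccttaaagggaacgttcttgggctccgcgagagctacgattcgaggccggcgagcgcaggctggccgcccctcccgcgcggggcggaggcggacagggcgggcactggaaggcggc
Rcan1 internal start: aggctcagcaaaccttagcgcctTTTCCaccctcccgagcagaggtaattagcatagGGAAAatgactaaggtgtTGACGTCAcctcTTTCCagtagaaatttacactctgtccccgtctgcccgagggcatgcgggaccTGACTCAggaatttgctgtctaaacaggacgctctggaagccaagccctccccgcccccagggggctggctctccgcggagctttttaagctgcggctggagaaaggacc
The internal window held GGAAA 3 times, 227, 193 and 163 bases before the start, TGACGTCA once, 175 bases before it, and TGANTCA once, 110 bases before it, with no overlap among these matches. None of the 3 motifs was in the upstream window. Of 32841 windows of the same length in the RefSeq table, 6.39% held GGAAA 3 or more times, 6.75% held TGANTCA and 1.55% held TGACGTCA. Among the 12 windows found for 7 of the 9 genes, 3 copies of GGAAA also stood before Ppp3cb, Nfatc4 and 1 of the 2 starts of Nfatc2, and none before Ppp3r1. A match describes letters and is not a measured site.

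Each library held between 53877439 and 91579342 counts. FPKM values (fragments scaled for transcript length and library size) were divided by a per-library scaling factor of 0.776 to 1.14, which sets the typical gene equal across libraries. These scaled FPKM are the levels given throughout. Larp6 averaged 953 ± 183 scaled FPKM in Tg Ang II hearts (SD, n = 13) and 107 ± 258 in WT Ang II hearts (SD, n = 14), and 1010 ± 299 in Tg saline hearts (SD, n = 12) and 33.4 ± 17.5 in WT saline hearts (SD, n = 11). The WT Ang II mean is carried by library 329, labelled WT and male, whose Larp6 level of 1000 lay in the Tg range and whose column name carries the letters of a transgenic. The other WT Ang II hearts had 19.6 to 62.9. Library 847, labelled Tg and given WT letters, had 1120, in the Tg range as its label says. Both were kept under their labels, and values without both are given where they bear on a call. Fragments of the transgene and of the mouse's own Larp6 cannot be told apart.

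Ordered by level over all 50 hearts, Rcan2 stood first at 81.1 ± 9.33 scaled FPKM (SD), ahead of Rcan1 at 37.3 ± 22.6. Ppp3r1, the gene of the regulatory B subunit, followed at 15.4 ± 1.15, then the catalytic subunit genes Ppp3cb at 5.8 ± 0.543 and Ppp3ca at 4.57 ± 0.331. The NFAT genes were lowest, with Nfatc1 at 2.25 ± 0.269, Nfatc3 at 1.66 ± 0.201, Nfatc2 at 1.41 ± 0.2 and Nfatc4 at 0.653 ± 0.091. Within single hearts the order was nearly fixed. Rcan2 exceeded Rcan1 in 48 of 50 libraries, Rcan1 exceeded Ppp3r1 in 44 and Nfatc3 exceeded Nfatc2 in 41, while each of the other neighbouring pairs kept its order in all 50. The ranges over libraries overlapped for Rcan2 and Rcan1, for Rcan1 and Ppp3r1, for Ppp3cb and Ppp3ca, for Nfatc1 and Nfatc3 and for Nfatc3 and Nfatc2. Nfatc4 never reached 1 FPKM, the level asked for in at least 5 libraries, so 8 of the 9 genes entered the test over 11628 genes.

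Of the 8 tested genes Rcan1 differed most by genotype, and it was the only one called higher in Tg hearts. Under Ang II, 1 of the 8 tested genes was higher in Tg than in WT hearts and none was lower at an adjusted p under 0.05, where 32.8% of all tested genes were called, 16.4% in each direction. Under saline, 1 was higher (Rcan1) and 4 were lower in Tg hearts (Rcan2, Ppp3cb, Nfatc2 and Nfatc3), where 20.4% of all genes were called higher and 20.2% lower (40.6% together). In Tg hearts, Ang II raised Rcan2 alone among the 8, where 4.88% of all genes were called higher and 4.04% lower (8.93% together). In WT hearts it raised Rcan1 and lowered Ppp3cb, where 9.71% were called higher and 8.87% lower (18.6% together). With Tg Ang II hearts set against WT saline hearts, 1 was higher and 4 were lower, where 24% of all genes were called higher and 24.7% lower (48.7% together). With library size alone that contrast gave 4 higher and none lower: Rcan1, Rcan2 (0.21, adjusted p = 7.7e-04), Ppp3ca (0.16, adjusted p = 7.8e-04) and Ppp3r1 (0.14, adjusted p = 0.005). The median log2 fold change of the 8 genes was -0.08 for Tg against WT under Ang II, -0.14 under saline, 0.05 for Ang II against saline in Tg and -0.05 in WT, beside medians over all genes between -0.01 and 0.00. All tests are the quasi-likelihood test of edgeR with Benjamini-Hochberg adjustment over the 11628 genes, and comparisons with a group in common share its libraries.

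The direction of small differences depended on how libraries were set equal. Where only library size was used, the median over all genes was 0.14 on the log2 scale for Tg against WT under saline, and 4868 genes were called higher and 919 lower in place of 2376 and 2344. The same split was 3372 and 927 in place of 1905 and 1909 for Tg against WT under Ang II, 1987 and 477 in place of 1129 and 1031 for Ang II in WT hearts, 5174 and 1230 in place of 2787 and 2872 for Tg Ang II against WT saline, and 112 and 1111 in place of 298 and 216 for males against females. Differences below are therefore relative to the typical gene. In bulk tissue, fewer cells of a type and less RNA per cell cannot be told apart.

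**Figure D1:**
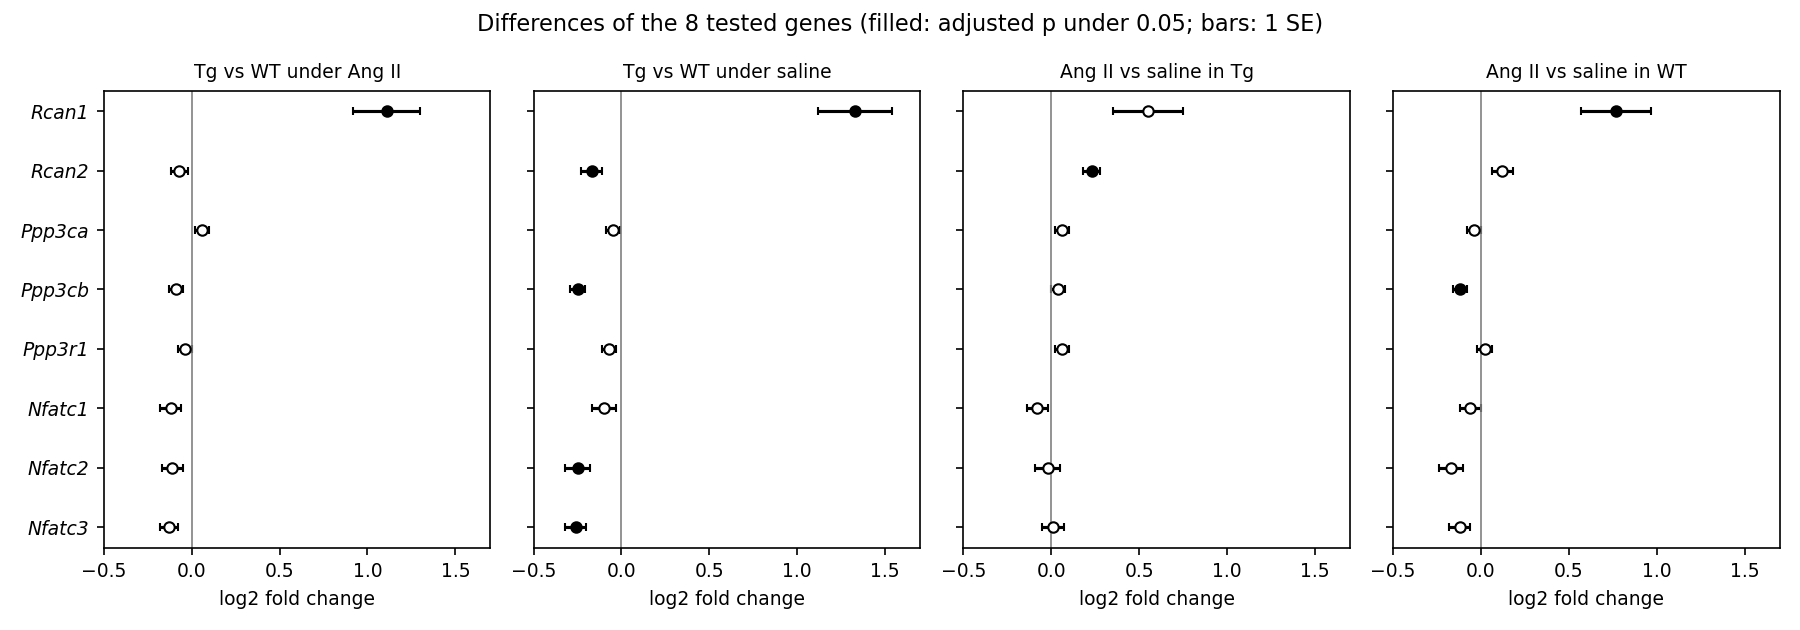
Log2 fold change (horizontal axis) with 1 SE for the 8 tested genes in 4 comparisons, filled where the adjusted p was under 0.05. Rcan1 lies at 1.11 and 1.33 in the Tg against WT panels, while no other gene exceeds 0.26 in size in any panel.

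Rcan1 was about doubled by the transgene under either infusion. The gene (ENSMUSG00000022951, chr16:92391953-92470867, minus strand, GRCm38) had a lowest, median and highest level of 35.6, 58 and 125 scaled FPKM in Tg Ang II hearts, against 13.4, 22.9 and 62.2 in WT Ang II hearts. These groups overlapped, and 5 of the 13 Tg hearts lay above every WT heart. The highest WT value, 62.2, belonged to library 329, and without it the WT maximum was 48.9. In saline, Tg hearts ran 24.3, 40.7 and 62.8 against 12.4, 18.1 and 20.3 in WT hearts. Here the genotypes did not overlap, with all 12 Tg hearts above every WT heart. In this and later comparisons, how many of all tested genes separated the groups so fully was not counted.

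The log2 fold change of Rcan1 in Tg against WT hearts was 1.11 ± 0.19 under Ang II (SE, 2.16-fold, edgeR adjusted p = 1.2e-05) and 1.33 ± 0.21 under saline (2.52-fold, edgeR adjusted p = 1.9e-06). Without libraries 329 and 847 the Ang II value was 1.24 (range over all 12 alternatives 1.05 to 1.31). Library numbers fall into 10 runs separated by gaps of more than 20, whose meaning the labels do not give. Within such runs, every Tg heart exceeded every WT heart in Rcan1 in 5 of the 6 runs that held both genotypes under Ang II, the exception being the run with library 329, and in 6 of 6 under saline. A run held only 1 to 4 hearts of a group, so separation within a single run says little.

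Ang II raised Rcan1 in WT hearts, where 8 of 14 Ang II hearts lay above every saline heart and 6 did not. The mean was 28.2 ± 14.9 scaled FPKM in WT Ang II hearts and 16.5 ± 2.99 in WT saline hearts (SD, n = 14 and 11), a log2 difference of 0.77 ± 0.20 (SE, 1.7-fold, edgeR adjusted p = 0.0056). Without libraries 329 and 847 it was 0.65 with an adjusted p of 0.019, and in females alone (0.64, adjusted p = 0.15) and males alone (0.90, adjusted p = 0.065) the call was lost. Each sex alone also called fewer of all genes, 665 in females and 590 in males in place of 2160. In Tg hearts the mean was 60.6 ± 24.8 under Ang II and 41.5 ± 12.1 under saline (SD, n = 13 and 12). That log2 difference of 0.55 ± 0.20 (SE) did not pass (edgeR adjusted p = 0.074). It passed without Tg Ang II library 530 (0.61, adjusted p = 0.041) and with a term for the runs of library numbers (0.76, adjusted p = 0.032). The difference between the Ang II responses, Tg minus WT, was -0.22 with a 95% interval of -0.77 to 0.33 (edgeR adjusted p = 0.82), so neither equal nor unequal responses were shown.

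Set end to end, Tg Ang II hearts exceeded WT saline hearts in Rcan1 by 1.88 ± 0.21 on the log2 scale (SE, 3.68-fold, edgeR adjusted p = 5.4e-10), with all 13 above every WT saline heart. The SD of the level was 24.8 in Tg Ang II hearts, 12.1 in Tg saline hearts, 14.9 in WT Ang II hearts and 2.99 in WT saline hearts. Tg Ang II males averaged 73 ± 31.3 and Tg Ang II females 50 ± 11.6 (SD, n = 6 and 7), while Tg saline males averaged 38.4 ± 10.6 and Tg saline females 44.7 ± 13.5 (SD, n = 6 each). The sex difference of the Ang II response, males minus females, was 0.51 with a 95% interval of -0.04 to 1.06 and did not pass (edgeR adjusted p = 1).

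Counts and FPKM of Rcan1 kept a fixed ratio across libraries, with a coefficient of variation of 0.0491%, so 1 gene length was used in every heart and the values carry no information on which start site the transcripts came from. GENCODE M21 lists 7 Rcan1 transcripts, among them 1 at the internal start and others that begin far upstream. The Rcan1 level therefore cannot be assigned to the internal window printed above.

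**Figure D2:**
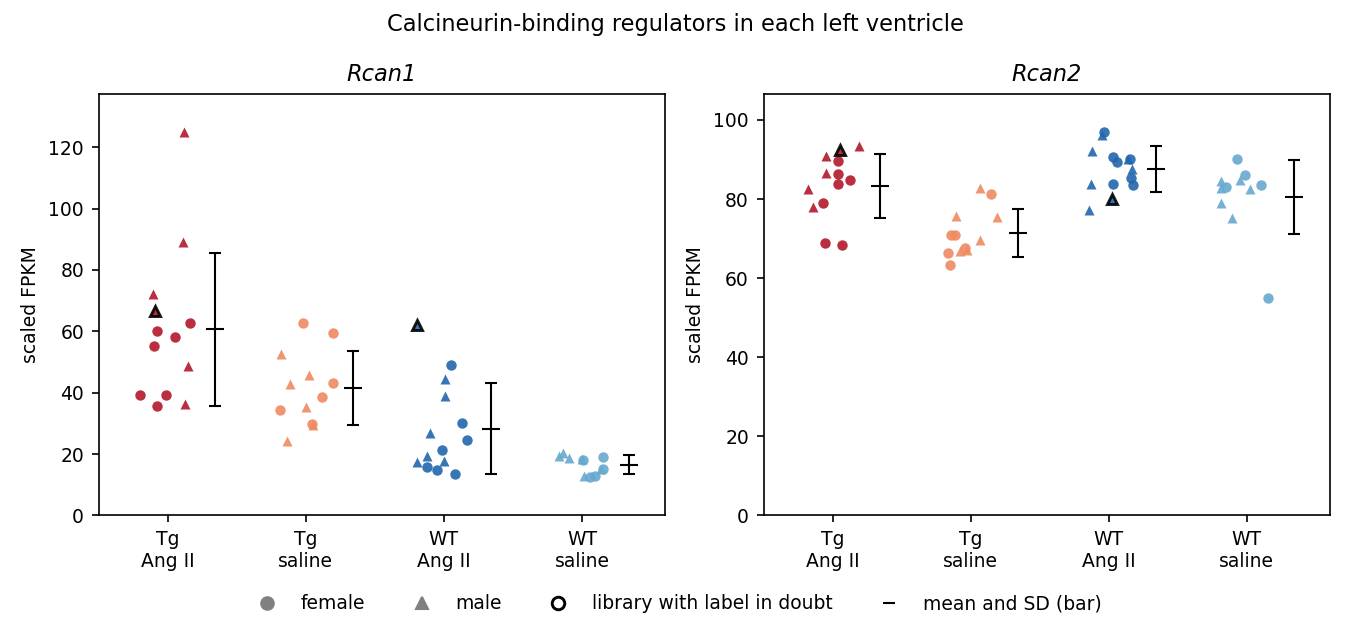
Scaled FPKM of Rcan1 and Rcan2 in each library by group, circles for females and triangles for males, with mean and SD; black outlines mark libraries 329 and 847. Rcan1 separates Tg saline (24.3 to 62.8) from WT saline hearts (12.4 to 20.3), whereas Rcan2 lies between 54.9 and 97 in all groups.

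Rcan2 (ENSMUSG00000039601, chr17:43801351-44039060, plus strand), the paralogue that is highly expressed in muscle and brain, did not follow Rcan1. Its lowest, median and highest levels were 68.3, 84.8 and 93.4 scaled FPKM in Tg Ang II hearts, 63.4, 70.2 and 82.7 in Tg saline hearts, 77.2, 88.5 and 97 in WT Ang II hearts, and 54.9, 83 and 90.1 in WT saline hearts. Tg saline hearts were the lowest group, and all groups overlapped. In saline it was lower in Tg than in WT hearts by -0.17 ± 0.06 on the log2 scale (SE, 0.888-fold, edgeR adjusted p = 0.014), a call lost with library size alone (-0.03, adjusted p = 0.62), with a term for the number runs (-0.13, adjusted p = 0.072) and in each sex alone. Under Ang II the difference was -0.07 with a 95% interval of -0.17 to 0.04 (edgeR adjusted p = 0.35).

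In Tg hearts Ang II raised Rcan2 by 0.23 ± 0.05 on the log2 scale (SE, 1.17-fold, edgeR adjusted p = 0.0064), with 8 of 13 Ang II hearts above every saline heart. In females alone it was 0.19 ± 0.09 (SE) and did not pass (edgeR adjusted p = 0.48), where only 6 of 11628 genes were called. In WT hearts the difference was 0.12 with a 95% interval of 0.01 to 0.23 (edgeR adjusted p = 0.11). With library size alone it was 0.19 and passed (adjusted p = 0.0071). The responses of the genotypes were not shown to differ (0.10, 95% interval -0.05 to 0.26, edgeR adjusted p = 0.66).

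A ratio within a library needs no scaling between libraries. The ratio of Rcan1 to Rcan2 averaged 0.726 ± 0.269 in Tg Ang II hearts and 0.329 ± 0.189 in WT Ang II hearts (SD, n = 13 and 14), a log2 difference of 1.26 (two-sided permutation test within sex, 1e+05 draws, p = 2.8e-04 after adjustment over 8 tests). In saline it averaged 0.585 ± 0.179 in Tg hearts and 0.208 ± 0.0468 in WT hearts (SD, n = 12 and 11), a log2 difference of 1.47 with a raw permutation p of 1e-05, the smallest these draws can give, and 8.0e-05 after adjustment. Under saline the genotypes did not overlap in this ratio, with 0.364 to 0.887 in Tg and 0.138 to 0.273 in WT hearts. The Ang II differences in the ratio, 0.30 in Tg and 0.51 in WT hearts on the log2 scale, did not pass (adjusted permutation p = 0.18 and 0.075). These ratios were chosen after the levels were seen.

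**Figure D3:**
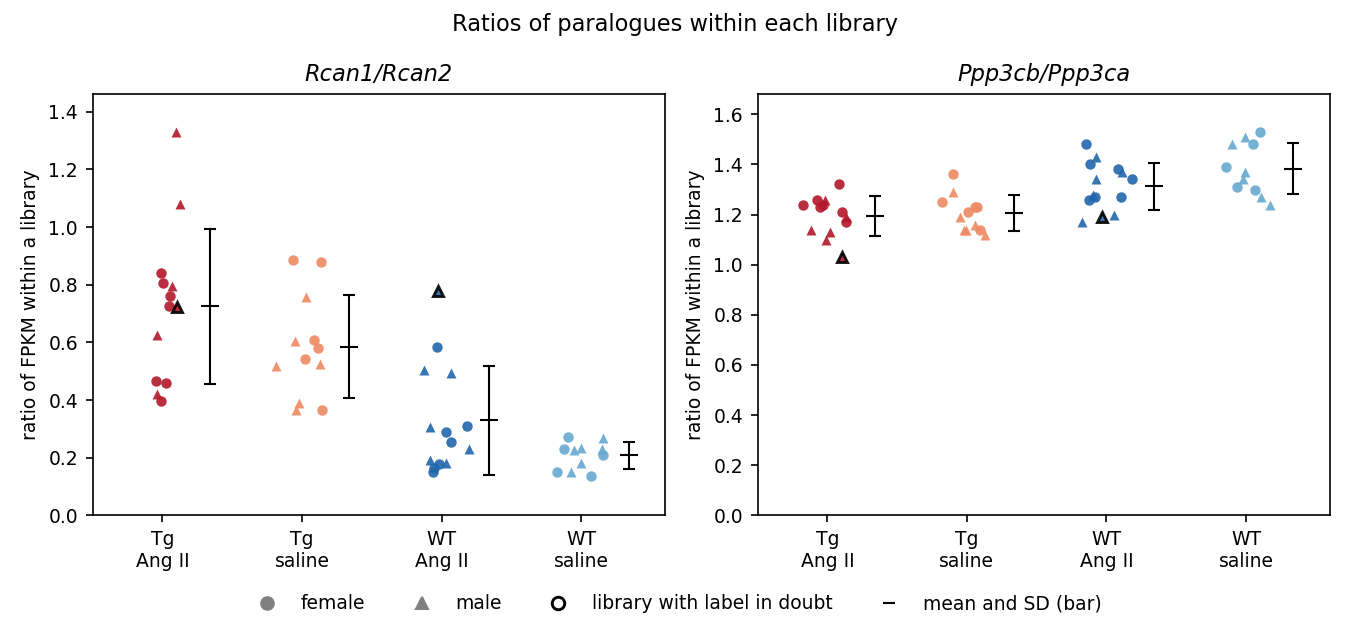
FPKM ratios within each library for Rcan1 over Rcan2 and Ppp3cb over Ppp3ca by group, circles for females and triangles for males, with mean and SD; black outlines mark libraries 329 and 847. Rcan1 over Rcan2 is higher in Tg (0.726 and 0.585 under Ang II and saline) than in WT hearts (0.329 and 0.208), and Ppp3cb over Ppp3ca is lower in Tg (1.19 and 1.2) than in WT hearts (1.31 and 1.39).

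Among Ppp3ca, Ppp3cb and Ppp3r1, only Ppp3cb passed a test of genotype or Ang II. Ppp3cb (ENSMUSG00000021816, chr14:20499364-20546573, minus strand) encodes the beta isoform of the catalytic A subunit, the isoform whose loss in mice is known to blunt hypertrophy. Its lowest, median and highest levels were 5.05, 5.55 and 6.03 scaled FPKM in Tg Ang II hearts, 4.77, 5.36 and 6.25 in Tg saline hearts, 4.81, 5.94 and 6.47 in WT Ang II hearts, and 5.59, 6.43 and 7.03 in WT saline hearts. WT saline hearts were the highest group, and 9 of 12 Tg saline hearts lay below every one of them.

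In saline Ppp3cb was lower in Tg than in WT hearts by -0.25 ± 0.04 on the log2 scale (SE, 0.843-fold, edgeR adjusted p = 9.2e-06), and that call was kept under all 12 alternatives, with values of -0.31 to -0.11, the smallest in size being that with library size alone. Under Ang II the genotype difference was -0.09 ± 0.04 (SE) and did not pass (edgeR adjusted p = 0.084). It passed without WT Ang II library 159 (-0.11, adjusted p = 0.016) and with a term for the number runs (-0.11, adjusted p = 0.029). Ang II lowered Ppp3cb in WT hearts by -0.12 ± 0.04 (SE, 0.922-fold, edgeR adjusted p = 0.039), a call lost without any 1 of 11 libraries (WT Ang II 159, 163, 165, 328 and 329, and WT saline 332, 488, 718, 776, 846 and 968), at adjusted p of 0.051 to 0.077. The call was also lost with library size alone (-0.06, adjusted p = 0.32), with no filter on low genes (-0.11, adjusted p = 0.11), without libraries 329 and 847 (-0.11, adjusted p = 0.063) and in each sex alone. In Tg hearts the Ang II difference was 0.04 with a 95% interval of -0.04 to 0.12 (edgeR adjusted p = 0.59). The interaction of 0.16 (95% interval 0.05 to 0.27) had a raw p of 0.0087 and did not pass over all genes (edgeR adjusted p = 0.36).

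Ppp3ca (ENSMUSG00000028161, chr3:136670124-136937727, plus strand), the alpha isoform of the catalytic subunit, ranged over 4.15 to 5.38 scaled FPKM in Tg Ang II hearts, 4.02 to 4.79 in Tg saline hearts, 4.01 to 5.04 in WT Ang II hearts and 4.24 to 5.28 in WT saline hearts. The groups overlapped throughout. Its genotype difference was 0.06 under Ang II (95% interval -0.01 to 0.13, edgeR adjusted p = 0.23) and -0.05 under saline (95% interval -0.12 to 0.03, edgeR adjusted p = 0.34), but with library size alone the first became 0.14 and was called (adjusted p = 0.003) and the second turned to 0.09. Ppp3r1 (ENSMUSG00000033953, chr11:17159263-17200375, plus strand), the calcium-binding B subunit, averaged 15.4 ± 0.707, 14.8 ± 1.49, 15.8 ± 0.969 and 15.6 ± 1.25 scaled FPKM in Tg Ang II, Tg saline, WT Ang II and WT saline hearts (SD, n = 13, 12, 14 and 11). No Ppp3r1 test passed, and its genotype differences were -0.04 under Ang II (95% interval -0.12 to 0.04) and -0.07 under saline (95% interval -0.16 to 0.01).

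The balance of the beta and alpha catalytic isoforms differed by genotype. The gamma isoform gene, Ppp3cc, had higher group means than both and was left out of this ratio. The ratio of Ppp3cb to Ppp3ca averaged 1.19 ± 0.0778 in Tg Ang II hearts and 1.31 ± 0.0936 in WT Ang II hearts (SD, n = 13 and 14), a log2 difference of -0.14 (permutation test, adjusted p = 7.4e-04). In saline it averaged 1.2 ± 0.0721 in Tg and 1.39 ± 0.101 in WT hearts (SD, n = 12 and 11), a log2 difference of -0.20 (permutation test, adjusted p = 3.5e-04). Ppp3cb exceeded Ppp3ca in every heart, with ratios of 1.03 to 1.32 in Tg Ang II hearts at one end and 1.24 to 1.53 in WT saline hearts at the other. Ang II moved the ratio by -0.02 in Tg hearts and by -0.08 in WT hearts on the log2 scale, and neither passed (adjusted permutation p = 0.61 and 0.095).

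**Figure D4:**
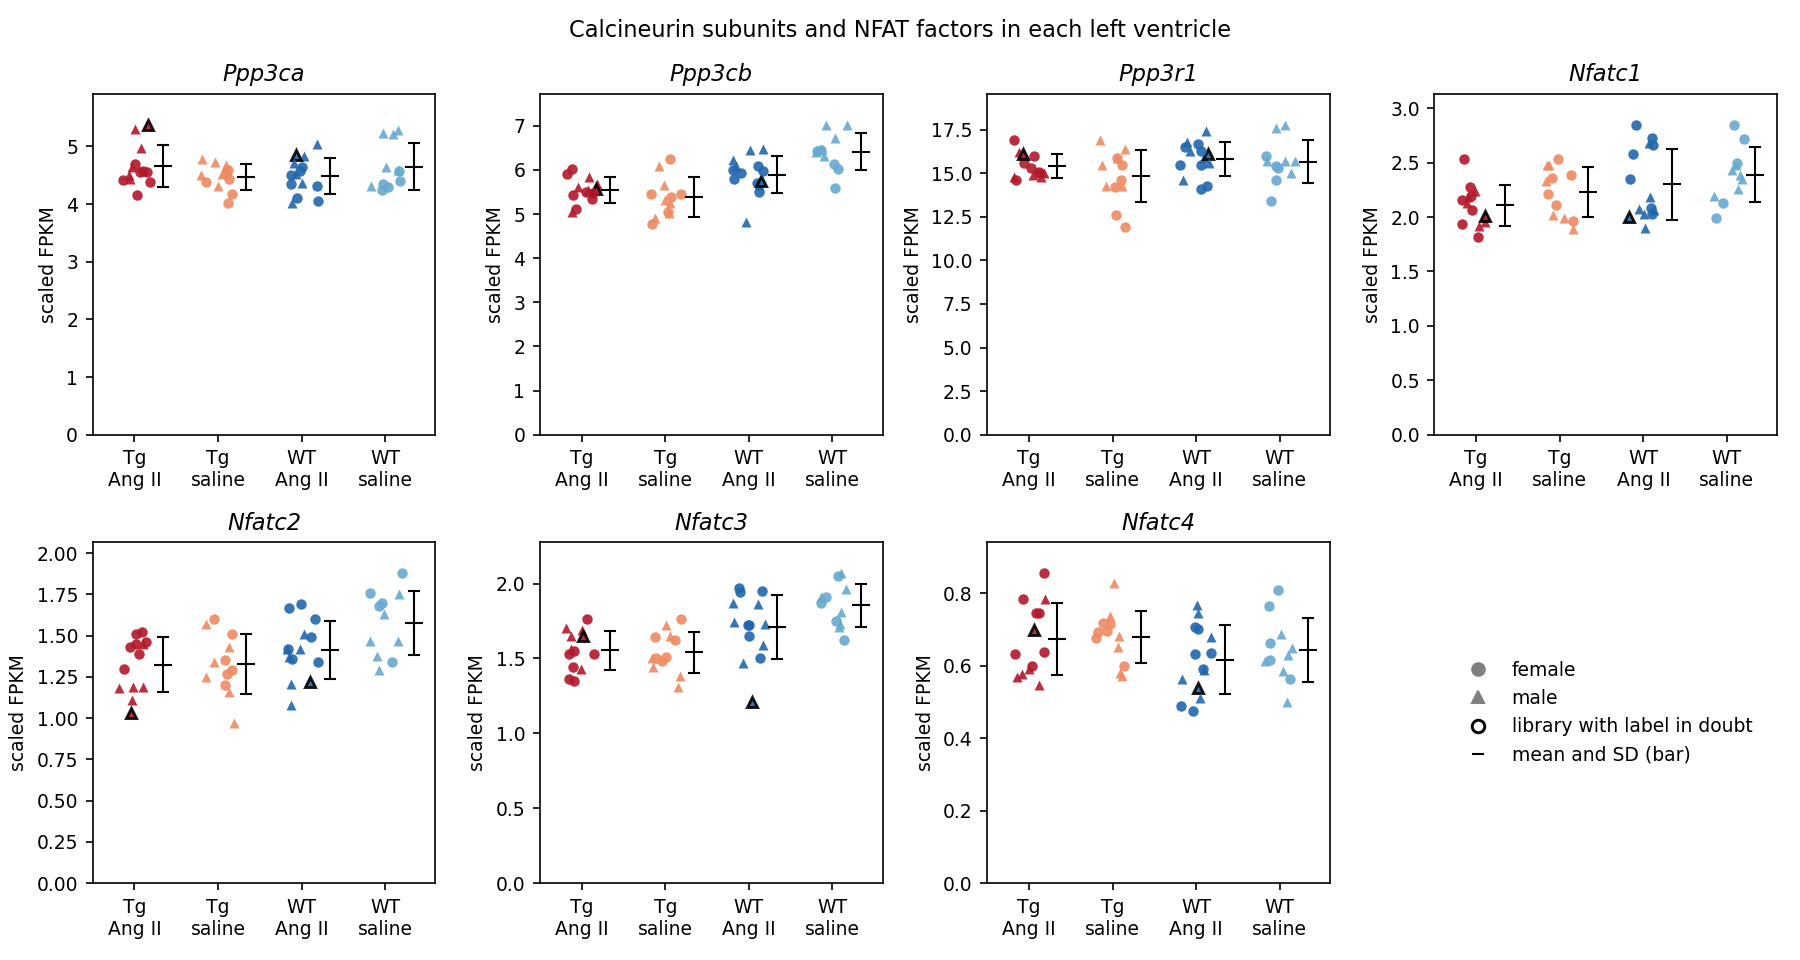
Scaled FPKM of the 3 calcineurin subunit genes and the 4 NFAT genes in each library by group, circles for females and triangles for males, with mean and SD; black outlines mark libraries 329 and 847. Ppp3cb, Nfatc2 and Nfatc3 are highest in WT saline hearts (means 6.42, 1.58 and 1.85), and Nfatc4 stays under 1 in all groups.

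Of the NFAT factors, the substrates of calcineurin, Nfatc2 and Nfatc3 were lower in Tg than in WT hearts under saline, and none was called higher. Nfatc3 (ENSMUSG00000031902, chr8:106058840-106128042, plus strand), a factor known in mice to carry calcineurin's growth signal in the heart, had a lowest, median and highest level of 1.35, 1.55 and 1.76 scaled FPKM in Tg Ang II hearts, 1.31, 1.5 and 1.76 in Tg saline hearts, 1.21, 1.73 and 1.97 in WT Ang II hearts, and 1.62, 1.87 and 2.07 in WT saline hearts. Of the Tg saline hearts, 8 of 12 lay below every WT saline heart. The saline difference was -0.26 ± 0.06 on the log2 scale (SE, 0.832-fold, edgeR adjusted p = 3.7e-04), and -0.13 with library size alone (adjusted p = 0.081).

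Under Ang II the Nfatc3 difference was -0.13 ± 0.05 (SE) and did not pass (edgeR adjusted p = 0.06). The lowest WT Ang II value, 1.21, was that of library 329. Without libraries 329 and 847 the difference was -0.16 and passed (adjusted p = 0.012). It also passed without any 1 of WT Ang II libraries 165, 328, 329 and 779 or Tg Ang II library 717, at adjusted p of 0.0095 to 0.049. Ang II itself moved Nfatc3 by 0.01 in Tg hearts (95% interval -0.10 to 0.13, edgeR adjusted p = 0.92) and by -0.12 in WT hearts (95% interval -0.23 to -0.01, edgeR adjusted p = 0.14).

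Nfatc2 (ENSMUSG00000027544, chr2:168476410-168601632, minus strand), a factor best known from T cells, had a lowest, median and highest level of 1.03, 1.39 and 1.52 scaled FPKM in Tg Ang II hearts, 0.968, 1.32 and 1.6 in Tg saline hearts, 1.08, 1.42 and 1.69 in WT Ang II hearts, and 1.29, 1.63 and 1.88 in WT saline hearts. All groups overlapped, with 5 of 12 Tg saline hearts below every WT saline heart. The saline difference was -0.25 ± 0.07 (SE, 0.839-fold, edgeR adjusted p = 0.0025), and was not called with library size alone (-0.11, adjusted p = 0.21) or in males alone (-0.22, adjusted p = 0.14). Under Ang II it was -0.11 (95% interval -0.23 to 0.01, edgeR adjusted p = 0.19). In WT hearts the Ang II difference of -0.17 ± 0.07 (SE) did not pass (edgeR adjusted p = 0.07), and passed without any 1 of WT saline libraries 232 and 332 and WT Ang II library 296, at adjusted p of 0.029 to 0.046.

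Nfatc1 (ENSMUSG00000033016, chr18:80606205-80713071, minus strand), known from the endocardium and the heart valves, averaged 2.11 ± 0.187, 2.23 ± 0.228, 2.3 ± 0.33 and 2.39 ± 0.25 scaled FPKM in Tg Ang II, Tg saline, WT Ang II and WT saline hearts (SD, n = 13, 12, 14 and 11). Neighbouring groups differed by less than their SD, and only the widest contrast passed, with Tg Ang II below WT saline hearts by -0.19 ± 0.06 on the log2 scale (SE, 0.88-fold, edgeR adjusted p = 0.014). That call was lost with library size alone (-0.03, adjusted p = 0.71), in females alone (-0.19, adjusted p = 0.15) and in males alone (-0.18, adjusted p = 0.081). With a term for the number runs, the difference of Tg against WT under Ang II, -0.12 without it (edgeR adjusted p = 0.11), was -0.17 and passed (adjusted p = 0.014). In the same contrast Nfatc2 (-0.27, adjusted p = 6.7e-04), Nfatc3 (-0.25, adjusted p = 4.0e-04) and Ppp3cb (-0.20, adjusted p = 7.1e-05) were also lower by edgeR, and each of these 3 calls was lost with library size alone (adjusted p = 0.15, 0.15 and 0.25).

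Nfatc4 (ENSMUSG00000023411, chr14:55823144-55833943, plus strand), another factor linked to heart growth in mice, lay below the level asked for in the test. It averaged 0.674 ± 0.1 scaled FPKM in Tg Ang II, 0.679 ± 0.072 in Tg saline, 0.616 ± 0.095 in WT Ang II and 0.644 ± 0.0877 in WT saline hearts (SD, n = 13, 12, 14 and 11), on 182 to 493 counts a library. In the fit with no filter on low genes its log2 differences lay between -0.06 and 0.11 in the 4 comparisons of genotype and Ang II, with edgeR adjusted p of 0.37 or more.

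No member's response to Ang II was shown to differ between the genotypes, where edgeR called 0.0086% of all genes higher and 0.0344% lower (0.043% together). DESeq2 called none of the members either, and 1 of the 8, Ppp3cb, had a raw p under 0.05 by edgeR. Sex separated Ppp3ca and Nfatc2, where 2.56% of all genes were called higher in males and 1.86% lower (4.42% together). Ppp3ca was higher in males than in females by 0.11 ± 0.03 on the log2 scale (SE, edgeR adjusted p = 0.0085), with 4.87 in males and 4.47 in females on average among Tg Ang II hearts and 4.88 and 4.37 scaled FPKM among WT saline hearts. The sexes lay closer in Tg saline hearts (4.59 in males and 4.36 in females) and WT Ang II hearts (4.62 and 4.36). Nfatc2 was lower in males by -0.18 ± 0.05 (SE, edgeR adjusted p = 0.018), with 1.19 in males and 1.44 in females among Tg Ang II hearts and 1.5 and 1.67 among WT saline hearts. Its means were 1.29 in males and 1.37 in females among Tg saline hearts, and 1.32 and 1.51 among WT Ang II hearts. The Ppp3ca call was lost with library size alone (0.06, adjusted p = 0.2) and with a term for number runs (0.09, adjusted p = 0.1). No sex difference of the transgene or Ang II response passed for any gene tested by edgeR, where 0% were called and DESeq2 called 2 genes in each. At a raw p under 0.05 no member stood out in either.

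The rest of the route was read from 58 genes listed by role, of which 51 were tested. In Tg against WT hearts, 12 rose and 8 fell under Ang II, where 16.4% of all genes were called in each direction. Under saline 11 rose and 14 fell, where 20.4% of all genes were called higher and 20.2% lower. With Ang II against saline, 5 rose and 3 fell in Tg hearts, beside 4.88% higher and 4.04% lower among all genes. In WT hearts 11 rose and 6 fell, beside 9.71% higher and 8.87% lower. The median log2 fold change of the lists together was between -0.02 and 0.03 in these 4 comparisons. Genes of these lists were read from the main fit only. Small differences among them may depend on the scaling, as those of the members did.

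Upstream of calcineurin, genes of calcium entry were called lower in Tg hearts or did not pass. Of 7 tested calcium entry genes, none rose and 3 fell in Tg hearts under saline, where 20.2% of all genes were called lower. Stim1, the calcium sensor of the sarcoplasmic reticulum, averaged 1.23 ± 0.147 scaled FPKM in Tg saline hearts and 1.45 ± 0.15 in WT saline hearts (SD, n = 12 and 11; log2 difference -0.23, edgeR adjusted p = 0.0077). Ppp3cc, the gamma catalytic isoform best known from testis, averaged 6.08 ± 0.558 in Tg saline hearts and 6.82 ± 0.634 in WT saline hearts, above Ppp3ca and Ppp3cb in the same groups (-0.17, edgeR adjusted p = 0.017). With Ppp3cc at 6.65 ± 0.539 in Tg Ang II hearts and 7.39 ± 0.767 in WT Ang II hearts, its genotype difference also passed there (-0.15, edgeR adjusted p = 0.022).

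Among 11 tested genes of other calcineurin regulators, 2 rose and 2 fell in Tg hearts under saline. These counts are near the shares over all genes, 20.4% called higher and 20.2% lower. Myoz2 (calsarcin-1), which tethers calcineurin at the Z-disc and restrains it in mice, averaged 180 ± 20.4 scaled FPKM in Tg Ang II hearts and 237 ± 18.8 in WT Ang II hearts (SD, n = 13 and 14; log2 difference -0.40, edgeR adjusted p = 5.4e-09), and 153 ± 9.32 in Tg saline hearts and 182 ± 9.93 in WT saline hearts (-0.24, edgeR adjusted p = 8.8e-05). Ang II raised it in both genotypes, by 0.24 in Tg (edgeR adjusted p = 1.0e-03) and by 0.39 in WT hearts (edgeR adjusted p = 2.6e-07). Akap6, a perinuclear scaffold that holds calcineurin and NFAT together, moved the other way, with 11.3 ± 1.58 in Tg saline hearts and 8.21 ± 1.32 in WT saline hearts (0.47, edgeR adjusted p = 1.1e-05). Cib1, which anchors calcineurin at the sarcolemma, rose in Tg hearts under saline, with 2.31 ± 0.505 against 1.76 ± 0.307 in WT (0.41, edgeR adjusted p = 0.0013).

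Of 12 kinases that act on NFAT factors, 2 rose and 5 fell in Tg hearts under saline, and 5 rose and 1 fell under Ang II. The shares over all genes were 20.4% higher and 20.2% lower under saline, and 16.4% in each direction under Ang II. Mapk14, the gene of p38 alpha, averaged 10.9 ± 0.735 scaled FPKM in Tg saline hearts and 13.4 ± 1.38 in WT saline hearts (SD, n = 12 and 11; -0.29, edgeR adjusted p = 4.2e-05). Ang II also lowered Mapk14, by -0.35 in WT hearts (edgeR adjusted p = 1.1e-05) and by -0.16 in Tg hearts (edgeR adjusted p = 0.045). Csnk1d, a casein kinase, rose in Tg hearts under saline, with 9.38 ± 0.433 against 8.25 ± 0.563 in WT (0.18, edgeR adjusted p = 5.6e-05). In a list of 9 genes made up of partner factors and Nfat5, the factor that calcineurin does not control, Gata4 rose in Tg hearts under Ang II (0.33, edgeR adjusted p = 7.6e-05) and saline (0.28, edgeR adjusted p = 0.0012), and Mef2a fell in both (-0.22, edgeR adjusted p = 3.2e-04, and -0.29, edgeR adjusted p = 1.0e-05). Nfat5 fell in Tg hearts under saline (-0.21, edgeR adjusted p = 0.0029).

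Downstream, 5 of 8 tested hypertrophy genes rose in Tg hearts under saline and 4 under Ang II, with none lower. Over all genes, 20.4% were called higher under saline and 16.4% under Ang II. Nppa, the gene of atrial natriuretic peptide, averaged 1130 ± 507 scaled FPKM in Tg saline hearts and 132 ± 38.5 in WT saline hearts (SD, n = 12 and 11; log2 difference 3.07, edgeR adjusted p = 1.4e-11). Ang II in WT hearts raised 6 of the 8, Nppa among them (2.05, edgeR adjusted p = 5.2e-07), and in Tg hearts raised Xirp2 (0.79, edgeR adjusted p = 2.8e-06) and Acta1 (1.64, edgeR adjusted p = 1.7e-05) and lowered Adssl1, a muscle enzyme of purine metabolism (-0.16, edgeR adjusted p = 0.027). Over all genes, Ang II raised 9.71% in WT hearts, and in Tg hearts it raised 4.88% and lowered 4.04%. The hypertrophy list's median log2 fold change was 0.53 for Tg against WT under Ang II and 0.98 under saline.

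Markers of cell types also differed by genotype, in both directions. Of 8 endothelial markers, 7 fell in Tg against WT hearts under either infusion, with summed levels of 87.5 to 120 scaled FPKM in Tg saline hearts and 123 to 191 in WT saline hearts. The summed levels overlapped under Ang II, at 90.6 to 137 in Tg and 105 to 179 in WT hearts. Under saline, 6 of 7 mural markers fell (103 to 136 in Tg, 151 to 199 in WT hearts), whereas 7 of 7 fibroblast markers rose (180 to 297 in Tg, 123 to 174 in WT) and 8 of 8 macrophage markers rose (150 to 424 in Tg, 97.4 to 126 in WT). Under Ang II, 5 of 7 mural markers fell, and 5 of 7 fibroblast and 6 of 8 macrophage markers rose, with overlapping sums in each list. In the mural list 1 marker rose under either infusion. Cardiomyocyte markers, present at 11200 to 16100 in all hearts, included 5 of 8 that fell and 1 that rose under saline, and 6 that fell under Ang II. The part of these shifts in the differences of the members was not tested. Over all genes, 20.4% were called higher and 20.2% lower in Tg hearts under saline, and 16.4% in each direction under Ang II. T and NK cell markers summed to 0.202 to 2.35 over all groups, with Cd3e, Cd3d and Cd8a under 0.1 on average, and B cell markers to 0.214 to 1.88, with Ms4a1 under 0.1. Of 4 endocardial markers, Hapln1 was under 0.1 and 2 were tested, of which 1 was higher in Tg than in WT hearts under Ang II, 1 was higher in Tg Ang II than in WT saline hearts, 1 was lower with Ang II in WT hearts and none was called in Tg against WT under saline. Skeletal muscle markers had Myh1, Myh2 and Myh4 under 0.1 and 1 tested gene, which was lower in Tg than in WT hearts under Ang II (-0.86) and saline (-0.77). The summed levels were 239 to 344 in Tg saline and 477 to 539 in WT saline hearts. Of the other markers of the list, Tnnt3 and Ckm, only 1 passed the filter. In most hearts the sums therefore came nearly wholly from that gene. They are not read as a level of skeletal muscle. The 3 adipocyte markers were all under 0.1.

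Across the 50 hearts Rcan1 varied most like Tnfrsf12a, the gene of the TWEAK receptor Fn14, with a Pearson r of 0.92 and a Spearman rho of 0.92 on log2(scaled FPKM + 1), then Enah, an actin regulator (0.91 and 0.89), and Hsp90aa1, a stress-induced chaperone (0.90 and 0.89). These 3 are the highest of all tested genes, so no p is given, and genotype, treatment and sex are shared by the points. After centring on the 8 groups of genotype, treatment and sex, r was 0.81 for Tnfrsf12a, 0.73 for Enah and 0.74 for Hsp90aa1, and within the 4 groups it lay between 0.66 and 0.89 for Tnfrsf12a, between 0.11 and 0.91 for Enah and between 0.47 and 0.86 for Hsp90aa1. Tnfrsf12a averaged 37.5 ± 9.18 scaled FPKM in Tg Ang II, 29.9 ± 5.3 in Tg saline, 20.4 ± 11.6 in WT Ang II and 9.82 ± 2.2 in WT saline hearts (SD, n = 13, 12, 14 and 11).

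The other members had other neighbours. Rcan2 varied most like Ccng1 (Pearson r 0.90, Spearman rho 0.81), Inpp5a (0.88 and 0.89) and Homer2 (0.87 and 0.85). Ppp3cb varied most like Arhgap5 (0.85 and 0.89), Hsdl2 (0.83 and 0.84) and Glud1 (0.83 and 0.84), and Nfatc3 most like Farp2 (0.80 and 0.82), the calcium pump gene Atp2a2 (0.79 and 0.79) and the myosin gene Myh6 (0.79 and 0.77). The highest r was weaker for Ppp3ca (Ppp1cb, 0.64), Nfatc1 (Zcchc14, 0.67) and Nfatc2 (Jarid2, 0.64). Among the members themselves, Rcan1 ran against Ppp3cb (r -0.69, and -0.53 after centring) and Nfatc3 (-0.63 and -0.41), while Nfatc1 and Nfatc3 rose together (0.57 and 0.48), all over n = 50 libraries that share scaling and groups.

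**Figure D5:**
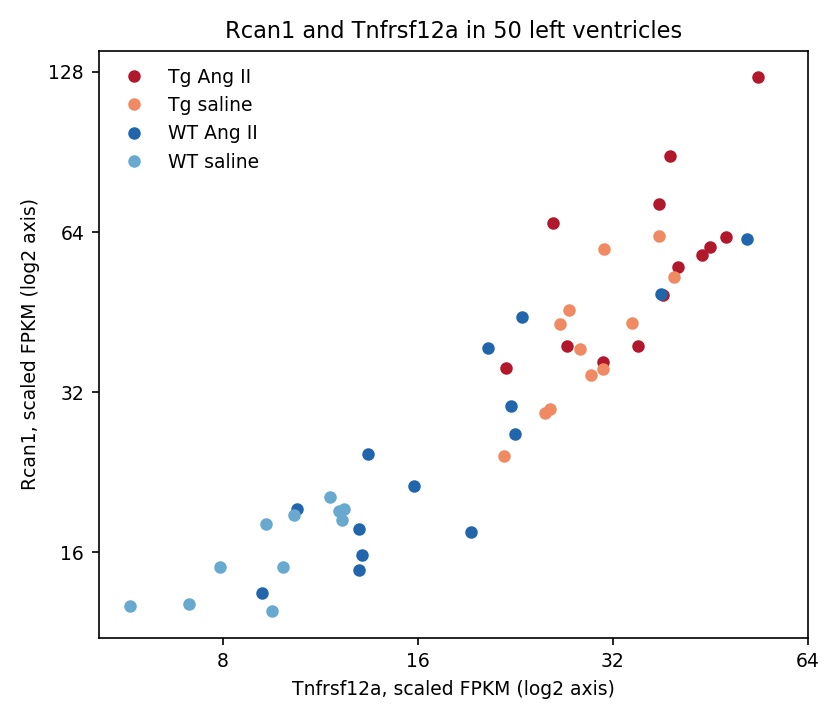
Scaled FPKM of Rcan1 against that of Tnfrsf12a on log2 axes, 1 point per left ventricle, coloured by group. The 50 points follow a rising line (Pearson r 0.92), with WT saline hearts at its low end, Tg hearts at its upper end and WT Ang II hearts spread along it.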

How the data were processed

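Poly(A) RNA of 50 left ventricles was sequenced as stranded paired ends, per the labels' protocols. The submitters' processing notes name cutadapt 1.9, FastQC, HISAT2 2.0.4 and StringTie 1.3.4d; the counting tool, its strand setting and the genome build are not given in the sources used here. The deposited table holds a count and an FPKM value per gene and library. The authors' counts were whole and used as deposited, and the authors' FPKM values carry gene length and library size. Of 35599 genes matched by identifier to GENCODE M21 (GRCm38), 91.6% had the same ends (not Rcan2, Nfatc2 and Nfatc3), so positions are read as GRCm38. The members and lists were chosen with earlier results of these data known. Genes were kept where 5 or more libraries reached an FPKM of 1, and went through the quasi-likelihood test of edgeR 4.0.16 (R 4.3.3), scaled by median of ratios, with 1 mean for each genotype, treatment and sex, sexes weighted equally, p two-sided. The test was checked on simulated counts. Intervals are on the log2 scale. Alternatives were TMM, library size only, DESeq2 1.42.0, limma-trend 3.58.1 on log2(FPKM + 1) and log2(FPKM + 0.1), no filter, a stricter filter, additive sex, no libraries 329 and 847, a term for runs of library numbers, each sex alone, and each library left out. Ratios within a library were permuted within sex. Named genes were all members, Larp6, up to 4 genes with the smallest p per list and comparison, and the 3 genes most like each member. Nothing says how libraries were spread over preparation or sequencing days, so p-values measure the spread between these libraries. Counting error was small: the mean count was 8954 for Rcan1 and 288 for Nfatc4. A few genes of the lists are not reported here.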

Additional observations from a re-analysis of the deposited data

How the results depend on the processing

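Over the members, 536 of 596 differences under the alternatives kept their direction and call, and 2468 of 2500 with 1 library left out. Rcan1 kept both genotype calls under all of these. The count of members called, in the order used above, changed as follows. For Tg against WT under Ang II (1), it was 2 with library size only, 2 without libraries 329 and 847, 3 with a term for number runs and 2 in females, and 1 to 2 with a library left out. Under saline (5), it was 2 with library size only, 4 with number runs, 4 in females and 3 in males. For Ang II in Tg (1), it was 2 with number runs and 0 in females, and 1 to 2 with a library left out. For Ang II in WT (2), it was 1 with no filter, 1 without 329 and 847, 0 in females and 0 in males, 2 (both higher) with library size only, and 1 to 3 with a library left out. For Tg Ang II against WT saline (5), it was 4 (all higher) with library size only, 4 in females and 3 in males. For males against females (2), it was 1 with library size only and 1 with number runs. Calls over all 11628 genes also moved. For Tg against WT under Ang II they were 3600 with number runs and 2181 in females, in place of 3814. Under saline they were 3106 in females and 2159 in males, in place of 4720. For Ang II in Tg they were 598 with number runs and 6 in females, in place of 1038. For Ang II in WT they were 665 in females and 590 in males, in place of 2160. For Tg Ang II against WT saline they were 3949 in females and 3662 in males, in place of 5659.

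Signs turned only for differences that had not passed. With library size only, log2 differences became, for Tg against WT under Ang II, 0.02 (Rcan2), 0.00 (Ppp3cb) and 0.05 (Ppp3r1); under saline, 0.09 (Ppp3ca), 0.06 (Ppp3r1) and 0.04 (Nfatc1); for Ang II in WT, 0.02 (Ppp3ca) and 0.00 (Nfatc1); for Tg Ang II against WT saline, 0.14 (Ppp3r1, then called, adjusted p = 0.005); and for the interaction, -0.01 (Ppp3r1). With number runs they became -0.02 (Ppp3cb) and -0.01 (Nfatc3) for Ang II in Tg, -0.01 (Ppp3ca) for Tg Ang II against WT saline, and 0.08 (Rcan1) and -0.01 (Ppp3r1) for the interaction. In females they became 0.07 (Nfatc2) and -0.08 (Nfatc3) for Ang II in Tg, 0.02 (Nfatc1) for Ang II in WT, 0.06 (Ppp3r1) for Tg Ang II against WT saline and -0.03 (Nfatc3) for the interaction. In males they became 0.01 (Rcan2) for Tg against WT under Ang II, -0.02 (Ppp3r1) for Ang II in Tg, -0.01 (Ppp3r1) for Ang II in WT, 0.00 (Ppp3ca) for Tg Ang II against WT saline, and 0.03 (Rcan1), -0.01 (Ppp3r1) and 0.06 (Nfatc1) for the interaction. With a library left out, the ranges that crossed 0 were -0.06 to 0.01 (Nfatc2, Ang II in Tg), -0.01 to 0.04 (Nfatc3, Ang II in Tg), 0.00 to 0.03 (Ppp3ca, Tg Ang II against WT saline) and -0.05 to 0.01 (Nfatc1, interaction). Ratios kept their calls without libraries 329 and 847. With each library left out, no p was computed for the ratios, and no log2 difference of a ratio changed sign. Both settings were chosen after seeing the data. The causes were not tested. No paired analysis was possible because no library number occurs in more than 1 group. Differences of about 0.1 on the log2 scale are at the limit of what these groups resolve, and each sex alone resolves less.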

Other observations

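Rcan1 was not evenly spread among WT Ang II hearts. Libraries 720, 721 and 722, the WT Ang II hearts of the run of numbers 715 to 722, had 13.4 to 15.8 scaled FPKM, where the 2 WT saline hearts of that run had 12.4 and 12.7. The WT Ang II hearts of the run 153 to 165 had 21.3 to 48.9, where the WT saline heart there had 20.3. Over the 5 runs that held both treatments in WT hearts, every Ang II heart exceeded every saline heart in 4, the exception being the run 774 to 783. In Tg hearts every Ang II heart exceeded every saline heart in 4 of 6 runs. A run held only 1 to 4 hearts of a group. Tg Ang II libraries in the run 715 to 722 had 39.1 and 125. What the runs stand for was not tested.

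The 3 genes most like Rcan1 were ordered by group as Rcan1 was, which their choice by r over the same hearts makes likely. Enah averaged 12.2 ± 2.65 scaled FPKM in Tg Ang II, 8.58 ± 1.06 in Tg saline, 7.09 ± 1.85 in WT Ang II and 4.61 ± 0.348 in WT saline hearts (SD, n = 13, 12, 14 and 11). Hsp90aa1 averaged 52.7 ± 7.57, 45.9 ± 6.87, 34.3 ± 10.1 and 23.8 ± 2.41 in the same groups and order. Without libraries 329 and 847, Nppb took the place of Hsp90aa1 (Pearson r 0.90, n = 48).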
